A study of Saccharomyces cerevisiae with 8 samples.

Results

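The codons for lysine, glutamine and glutamate were compared in yeast ribosome footprints, as 3 synonymous pairs that each hold 1 codon ending in A and 1 ending in G. They are AAA and AAG for lysine, a basic residue, CAA and CAG for glutamine, a neutral residue, and GAA and GAG for glutamate, an acidic residue. The rule for these 6 of the 61 sense codons in the table is the residue they encode and uses no occupancy value, although it was set with earlier results of these data known. The libraries came from WT cells (BY4741) and from eEF3d cells (yCW35), which carry hef3::KanMX in place of the HEF3 paralog, an osTIR1 gene at HO under the ADH1 promoter, and the eEF3 gene YEF3 with a GAL1 promoter and an mAID degron tag. WT cells carry none of these alleles, so the depletion system itself has no control strain here. The study's methods give a shift of both strains from galactose and raffinose to glucose medium, in which the GAL1 promoter is off, and the tag lets auxin drive degradation of the protein; growth of the libraries taken from an earlier study is not given in the sources used here. The paper reports that immunoblots no longer showed eEF3 after growth in glucose with auxin for the time used for its libraries. The table holds no expression values, so depletion of eEF3 was not checked in these libraries. Each strain had 2 libraries with cycloheximide and tigecycline (CHX + TIG) and 2 libraries with cycloheximide and anisomycin (CHX + ANS) in the lysis buffer.

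Lysine, glutamine and glutamate each have 2 codons. In yeast, the A-ending codon is read by a tRNA with a uridine at the wobble position of the anticodon (position 34), to which the Elongator complex adds a side group and the Urm1 pathway a sulfur. The G-ending codon has a tRNA of its own, whose anticodon starts with C, and can also be read by the uridine tRNA through wobble pairing. Ribosome-protected fragments (RPFs) of 21 nt from CHX + TIG libraries come from ribosomes whose A site awaits a tRNA (PreAcc state), and those of 28 nt from CHX + ANS libraries come from ribosomes before translocation (PreTrans state).

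The tRNA sequences that read these codons are shown because each pair differs in its anticodon and in gene number. They are the most frequent sequence among the nuclear genes of each anticodon, from RefSeq on the R64 assembly, written as DNA with the anticodon in capitals (first base at position 34) and without the CCA end.
tRNA-Lys, anticodon UUU: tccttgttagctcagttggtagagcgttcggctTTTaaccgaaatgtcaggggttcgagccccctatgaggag
tRNA-Lys, anticodon CUU: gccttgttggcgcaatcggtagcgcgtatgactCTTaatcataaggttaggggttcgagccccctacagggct
tRNA-Gln, anticodon UUG: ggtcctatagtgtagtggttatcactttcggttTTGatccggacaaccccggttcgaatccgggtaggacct
tRNA-Gln, anticodon CUG: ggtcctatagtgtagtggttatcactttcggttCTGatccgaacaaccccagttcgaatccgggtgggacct
tRNA-Glu, anticodon UUC: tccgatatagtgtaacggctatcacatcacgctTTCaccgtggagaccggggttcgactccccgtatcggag
tRNA-Glu, anticodon CUC: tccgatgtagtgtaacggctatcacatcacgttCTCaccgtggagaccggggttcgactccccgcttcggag
The copies printed lie, in the order of the lines, at chrIV:359577-359672 on the forward strand, chrIII:151284-151356, chrIII:168301-168372 and chrXIII:808246-808317 on the reverse strand, chrII:645167-645238 on the forward strand and chrIV:1017207-1017278 on the reverse strand. Each is annotated as a tRNA gene, and the first is joined from 2 exons. For lysine, the anticodon UUU had 7 genes and CUU had 14. For glutamine, UUG had 9 genes and CUG had 1, and for glutamate, UUC had 14 genes and CUC had 2. The lysine pair was thus the only one of the 3 in which the tRNA for the G-ending codon had more genes. The annotation noted a thiolated wobble uridine that requires Ncs6 on all 7, 9 and 14 genes with a uridine at the wobble position and on 0 genes with C there. The 2 tRNAs of glutamine were 94.4% identical and those of glutamate 93.1%, whereas the 2 lysine tRNAs were 72.6% identical.

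Over all coding sequences the A-ending codon was the more frequent one for each residue, whereas in ribosomal protein genes it was the G-ending codon for lysine and the A-ending codon for the other residues. Over 6002 nuclear coding sequences, AAA and AAG made up 58.4% and 41.6% of lysine codons. In the 132 genes with an RPL or RPS symbol, which encode ribosomal proteins, AAG made up 83.7% of lysine codons. CAA was 68.55% of glutamine codons over all coding sequences and 99.1% in ribosomal protein genes. GAA was 70.1% of glutamate codons and 96.95% in ribosomal protein genes. GAA and AAA ranked 1 and 2 by frequency among the 61 codons, AAG ranked 5, CAA 7, GAG 20 and CAG 36.

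The table holds, for each codon and library, the footprint density at the codon in the A site over the density in the coding sequence, here called occupancy. A value of 1 is the average of the coding sequence. Read numbers are not kept in this ratio, so the depth is unknown and the 2 replicates per group carry all of the error. For libraries with CHX + TIG, the paper reports a strong reduction of the shorter RPFs in eEF3d compared with WT cells. Whether this loss contributed to the strain differences in 21 nt RPFs described below, or to the spread between eEF3d replicates, was not tested. An earlier study had made 3 of the 8 libraries, namely WT replicate 1 among those with CHX + TIG and all WT ones among those with CHX + ANS. In CHX + ANS, strain and study therefore cannot be told apart. Replicates of the 6 codons had a log2 SD of 0.15 (WT) and 0.16 (eEF3d) for 21 nt RPFs, and of 0.09 and 0.06 for 28 nt RPFs. For scale, the highest and lowest means over 61 codons in WT were 7.22 ± 1.86 at CGG (Arg) and 0.338 ± 0.025 at AAC (Asn) in 21 nt RPFs. In 28 nt RPFs they were 2.60 ± 0.09 at CGA (Arg) and 0.572 ± 0.029 at CTT (Leu) (SD, n = 2 each).

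In 21 nt RPFs of WT cells, the G-ending codon had the higher occupancy for glutamine and glutamate, and the A-ending codon for lysine. CAG (Gln) had an occupancy of 1.55 and 1.45 in WT replicates 1 and 2, against 0.577 and 0.581 at CAA. GAG (Glu) had 1.94 and 1.72, against 0.837 and 0.866 at GAA. In both pairs the 2 codons were far apart relative to their replicates. AAA (Lys) had 0.718 and 0.950, and AAG had 0.632 and 0.522, so the order was the same in both libraries but the distance was not. From high to low, GAG was above CAG, CAG above GAA, and AAA above CAA without overlap of the replicates, whereas GAA and AAA overlapped, as did CAA and AAG.

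The ratio of the A-ending to the G-ending codon within a library does not depend on how the library was scaled. It was tested with limma over all 13 pairs of an A-ending and a G-ending codon for the same amino acid. In WT cells, 3 of the 3 pairs described here differed from 1, where 92.3% of the 13 pairs did. Occupancy at CAG was 2.58 times that at CAA (log2 ratio A over G -1.37, standard error 0.19, limma adjusted p = 2.82e-07). At GAG it was 2.14 times that at GAA (log2 ratio -1.10, standard error 0.19, limma adjusted p = 7.26e-06). At AAA it was 1.44 times that at AAG (log2 ratio 0.53, standard error 0.19, limma adjusted p = 0.0126). The lysine call rested on WT replicate 2, in which the log2 ratio was 0.87, against 0.18 in the earlier-study replicate 1. Without replicate 2 the limma adjusted p was 0.436, with a mean-variance trend it was 0.205, and without moderation it was 0.181. The lysine pair was the only one of the 13 with the A-ending codon higher in both WT libraries. Among the other 10 pairs, the log2 ratio ranged from -3.002 at CCA over CCG (Pro) to -0.06 at CGA over CGG (Arg), with a median of -1.34.

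**Figure D1:**
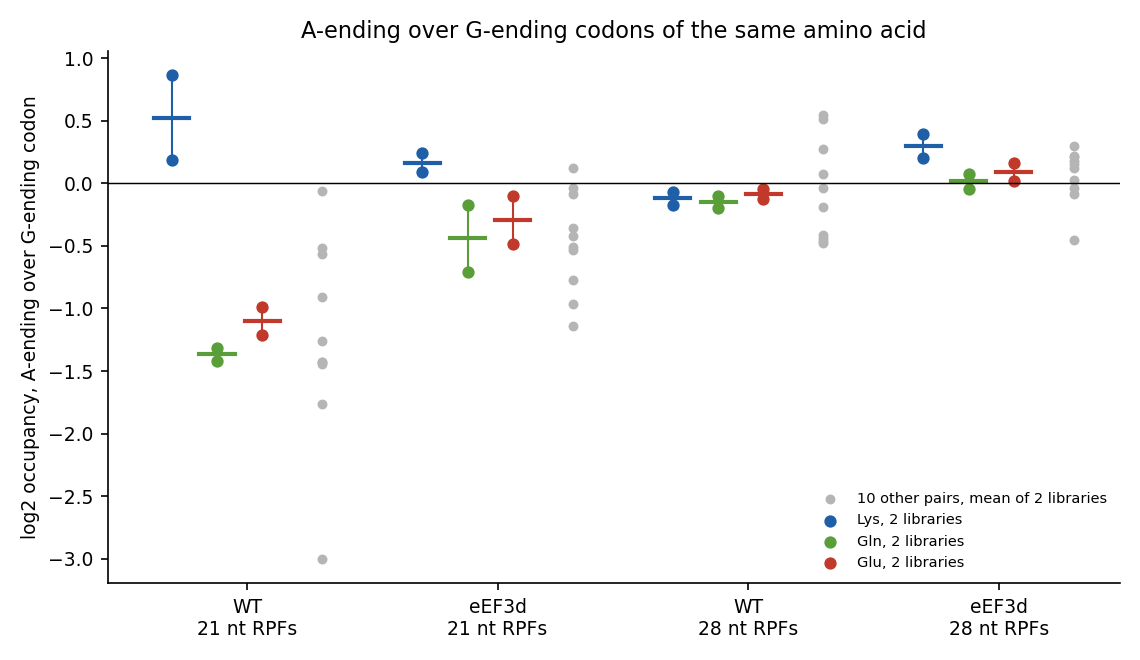
Log2 ratio of occupancy at the A-ending over the G-ending codon, for lysine, glutamine and glutamate in each of 2 libraries (points joined by a line, bar at the mean) and for the 10 other pairs (grey, mean of 2 libraries), by strain and footprint size. In WT 21 nt RPFs glutamine and glutamate lie at -1.37 and -1.10 and lysine at 0.53, and in eEF3d 21 nt RPFs all 3 lie between -0.44 and 0.17.

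In eEF3d cells, occupancy in 21 nt RPFs was higher than in WT at both lysine codons and at CAA, and lower at GAG. AAA had 1.25 and 1.04 in eEF3d replicates 1 and 2, and AAG had 1.05 and 0.978, all above the WT libraries. CAA had 0.966 and 0.787, also above both WT libraries. GAG had 1.09 and 1.20, below both WT libraries. In WT the first 3 of these codons were below 1 and GAG above it, and after depletion all 4 lay between 0.787 and 1.25. CAG, at 1.09 and 1.29, was below both WT libraries as well. GAA, at 1.02 and 0.859, overlapped with WT.

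By limma over the 61 codons, 3 of the 6 codons rose and 1 fell at an adjusted p under 0.05, where 34.4% of all codons rose and 27.9% fell (62.3% in either direction). AAG rose most, by 0.82 on the log2 scale (standard error 0.21, limma adjusted p = 0.000568), from 0.577 ± 0.078 to 1.02 ± 0.05 (SD, n = 2). CAA rose by 0.59 (limma adjusted p = 0.0117), from 0.579 ± 0.003 to 0.876 ± 0.127 (SD, n = 2). AAA rose by 0.46 (limma adjusted p = 0.0464), from 0.834 ± 0.164 to 1.14 ± 0.15 (SD, n = 2). GAG fell by 0.67 (limma adjusted p = 0.00416), from 1.83 ± 0.15 to 1.15 ± 0.08 (SD, n = 2). CAG had a log2 change of -0.34 (95% interval -0.75 to 0.07, limma adjusted p = 0.146) and GAA of 0.14 (95% interval -0.27 to 0.55, limma adjusted p = 0.575). The median change was 0.30 over the 6 codons and 0.17 over all 61. The AAA call was lost with the replicate block (limma adjusted p = 0.0736), with a pseudocount of 0.1 (0.0503) and with libraries centered on their median (0.218), where CAA was lost too (0.0648) and CAG fell by 0.49 (limma adjusted p = 0.0434), and GAG was lost with libraries divided by their mean (0.0943). Without moderation of the variances, or by limma without either 1 of the 2 WT libraries, 0 of the 61 codons passed, and among newly prepared libraries alone AAG had a change of 0.96, GAG of -0.59, CAA of 0.58 and AAA of 0.26. Without eEF3d replicate 1, only AAG of the 6 codons passed (0.77, limma adjusted p = 0.0135), and AAA had 0.33 (0.278), CAA 0.44 (0.15) and GAG -0.61 (0.055).

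**Figure D2:**
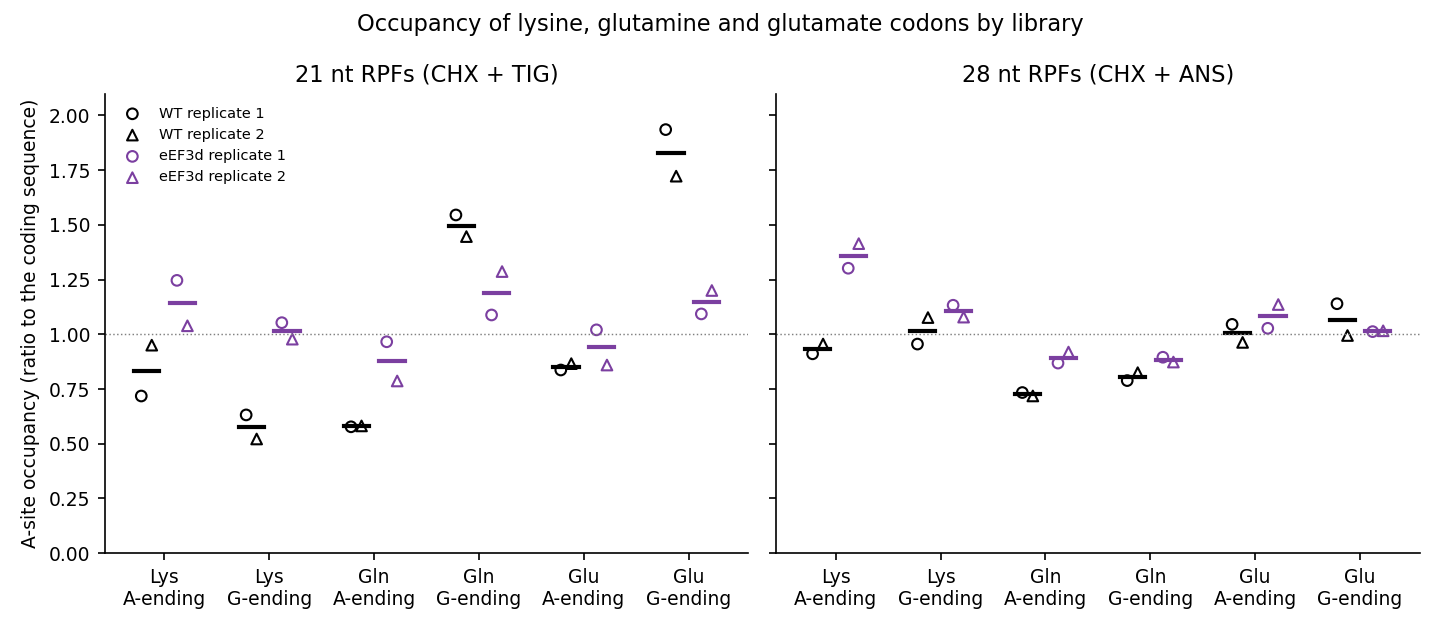
A-site occupancy (ratio to the coding sequence, linear axis) of the 6 codons in each library, with 21 nt RPFs on the left and 28 nt RPFs on the right, WT in black, eEF3d in purple and a bar at the mean of 2 libraries. In 21 nt RPFs, the G-ending codons of glutamine and glutamate are the highest in WT (1.496 and 1.83) and closer to 1 in eEF3d cells (1.19 and 1.15), and in 28 nt RPFs the A-ending lysine codon stands out in eEF3d cells at 1.36.

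The difference within the glutamine and glutamate pairs was smaller in eEF3d cells. For CAA over CAG, WT replicates 1 and 2 had log2 ratios of -1.42 and -1.31, and eEF3d replicates had -0.17 and -0.71. For GAA over GAG, they had -1.21 and -0.99 in WT against -0.10 and -0.48 after depletion. In both pairs the strains did not overlap, and the difference was smallest in eEF3d replicate 1. In most of the other pairs the strains did not overlap either, among them GCA over GCG (Ala) and GTA over GTG (Val). They did overlap at ACA over ACG (Thr). By limma over 13 pairs, 2 of these 3 ratios changed, where 61.5% of the 13 did, all of them upward. The glutamine ratio changed by 0.93 (standard error 0.27, limma adjusted p = 0.00521) and the glutamate ratio by 0.81 (standard error 0.27, limma adjusted p = 0.0108). Both calls were lost without eEF3d replicate 1, where the changes were 0.66 and 0.62 (limma adjusted p = 0.219 and 0.224), and without moderation (0.112 for both). The lysine ratio was 0.24 and 0.09 in eEF3d replicates 1 and 2, within or below the WT values, a change of -0.36 (95% interval -0.91 to 0.19, limma adjusted p = 0.252). It was -0.70 among newly prepared libraries (limma adjusted p = 0.0422) and -0.02 without WT replicate 2. In eEF3d cells 0 of the 3 ratios differed from 1 at an adjusted p under 0.05 by limma, where 38.5% of the 13 pairs did, although the glutamine ratio had an unadjusted p of 0.029 and an adjusted p of 0.0629.

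In 28 nt RPFs of WT cells, the codons of each pair were close together. AAA had 0.911 and 0.955 in WT replicates 1 and 2 and AAG had 0.955 and 1.08, and CAA had 0.734 and 0.718 where CAG had 0.788 and 0.825. GAA had 1.05 and 0.963 and GAG had 1.14 and 0.994. The A-ending codon was lower in both libraries for all 3 residues, as it was in 6 of the 10 other pairs, but by little. CAG was 1.11 times CAA (limma adjusted p = 0.0402), and the ratios of lysine (log2 -0.12, limma adjusted p = 0.0977) and glutamate (-0.09, limma adjusted p = 0.236) did not pass. So 1 of the 3 pairs differed from 1, where 69.2% of the 13 did, and the range over the other 10 was from -0.47 (CCA over CCG) to 0.55 (CGA over CGG). The glutamine call was lost with the replicate block (limma adjusted p = 0.0829) and without moderation (0.137). Without WT replicate 2 or without either eEF3d replicate, 0 of the 3 pairs passed.

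In eEF3d cells, AAA rose in 28 nt RPFs and AAG did not pass the test. AAA had 1.30 and 1.41 in eEF3d replicates 1 and 2, above both WT libraries, and rose by 0.54 on the log2 scale (standard error 0.07, limma adjusted p = 0.00142). CAA, with 0.868 and 0.919, rose by 0.30 (standard error 0.06, limma adjusted p = 0.0063). AAA thus moved from rank 33 of 61 by its mean in WT to rank 3 in eEF3d cells, while CAA stayed in the lower part, at rank 53 in WT and 44 in eEF3d cells. AAG had 1.13 and 1.08 (log2 change 0.12, limma adjusted p = 0.207) and CAG 0.895 and 0.873 (0.13, limma adjusted p = 0.0883). GAA had 1.03 and 1.14 (0.11, limma adjusted p = 0.267) and GAG 1.01 and 1.02 (-0.07, limma adjusted p = 0.455), both overlapping with WT. In all, 2 of the 6 codons rose and 0 fell, where 23.0% of the 61 codons rose and 26.2% fell (49.2% in either direction), and the median change was 0.13 over the 6 and 0.03 over the 61. With libraries divided by their mean, 5 of the 6 rose, and with the replicate block CAA was lost (limma adjusted p = 0.0504). Without moderation both AAA (0.06) and CAA (0.0696) were lost, and in these footprints the strain cannot be told apart from the study in which the libraries were made.

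Within the pairs, the lysine ratio changed in 28 nt RPFs. WT replicates 1 and 2 had log2 ratios of -0.07 and -0.17 where eEF3d replicates had 0.20 and 0.39, so that AAA went from slightly below AAG to above it. The change was 0.42 (standard error 0.09, limma adjusted p = 0.000501), and the ratio in eEF3d cells differed from 1, with AAA at 1.23 times AAG (limma adjusted p = 0.000471). The glutamine ratio changed by 0.17 (95% interval -0.02 to 0.36, limma adjusted p = 0.106) and the glutamate ratio by 0.18 (95% interval -0.01 to 0.37, limma adjusted p = 0.0943), with eEF3d above WT in both. Thus 1 of 3 ratios changed, where 53.8% of the 13 did, and 1 of 3 differed from 1 in eEF3d cells, where 46.2% of the 13 did. Without eEF3d replicate 2 the lysine change was 0.32 (limma adjusted p = 0.0526) and 0 of the 3 pairs differed from 1 in eEF3d cells. Without moderation the adjusted p of the lysine change was 0.133.

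**Figure D3:**
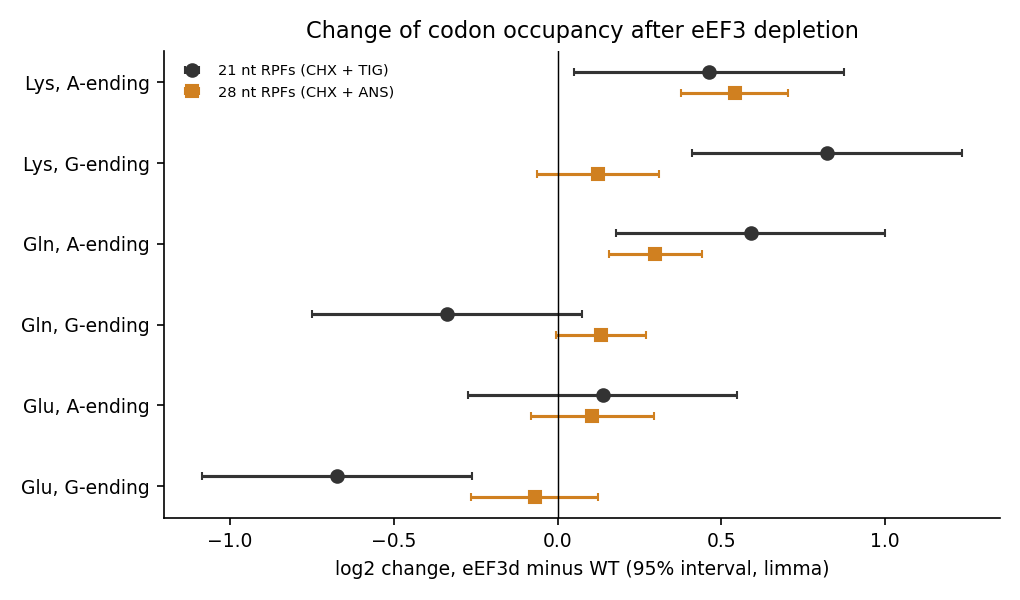
Log2 change of occupancy, eEF3d minus WT, with its 95% interval from limma, for the 6 codons in 21 nt RPFs (circles) and 28 nt RPFs (squares). In 21 nt and 28 nt RPFs the G-ending codon of lysine lies at 0.82 and 0.12, of glutamine at -0.34 and 0.13 and of glutamate at -0.67 and -0.07.

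The change in eEF3d cells was compared between the footprint classes by the interaction term of limma over all 8 libraries. It differed at all 3 G-ending codons and was not called at an A-ending codon, 3 of 6 codons in all, where 50.8% of the 61 codons differed. This split by last base was not general. Among other codons, A-ending GGA (Gly, limma adjusted p = 2.87e-05) and ACA (Thr, 0.00444) were called. G-ending ACG (Thr, 0.111) and GTG (Val, 0.455) were not. Whether A-ending and G-ending codons differed in this respect was not tested. At AAG the change in 28 nt RPFs was 0.70 lower than in 21 nt RPFs (28 nt minus 21 nt -0.70, standard error 0.20, limma adjusted p = 0.00753). At GAG the difference was 0.60 (standard error 0.19, limma adjusted p = 0.015) and at CAG 0.47 (standard error 0.19, limma adjusted p = 0.0451). At AAA it was 0.08 (95% interval -0.38 to 0.53), at GAA -0.03 (-0.44 to 0.37) and at CAA -0.29 (-0.69 to 0.11). Of 15 alternatives, 10 ended the CAG call, among them the replicate block (limma adjusted p = 0.088), 4 the GAG call and 2 the AAG call. For the pair ratios, all 3 differed between the classes, where 61.5% of the 13 did. The difference was 0.78 for lysine and -0.76 for glutamine (limma adjusted p = 0.0251 each), and -0.63 for glutamate (limma adjusted p = 0.0497). Each of the 3 pair calls was lost without any 1 of the 4 CHX + ANS libraries, without eEF3d replicate 1 of CHX + TIG and without moderation, and that of glutamate also with the replicate block (limma adjusted p = 0.0688) or a pseudocount of 0.1 (0.0506). The lysine call was also lost with a mean-variance trend (0.0959) and without replicate 2 of either strain in CHX + TIG, and that of glutamate without WT replicate 1 there (0.0515).

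**Figure D4:**
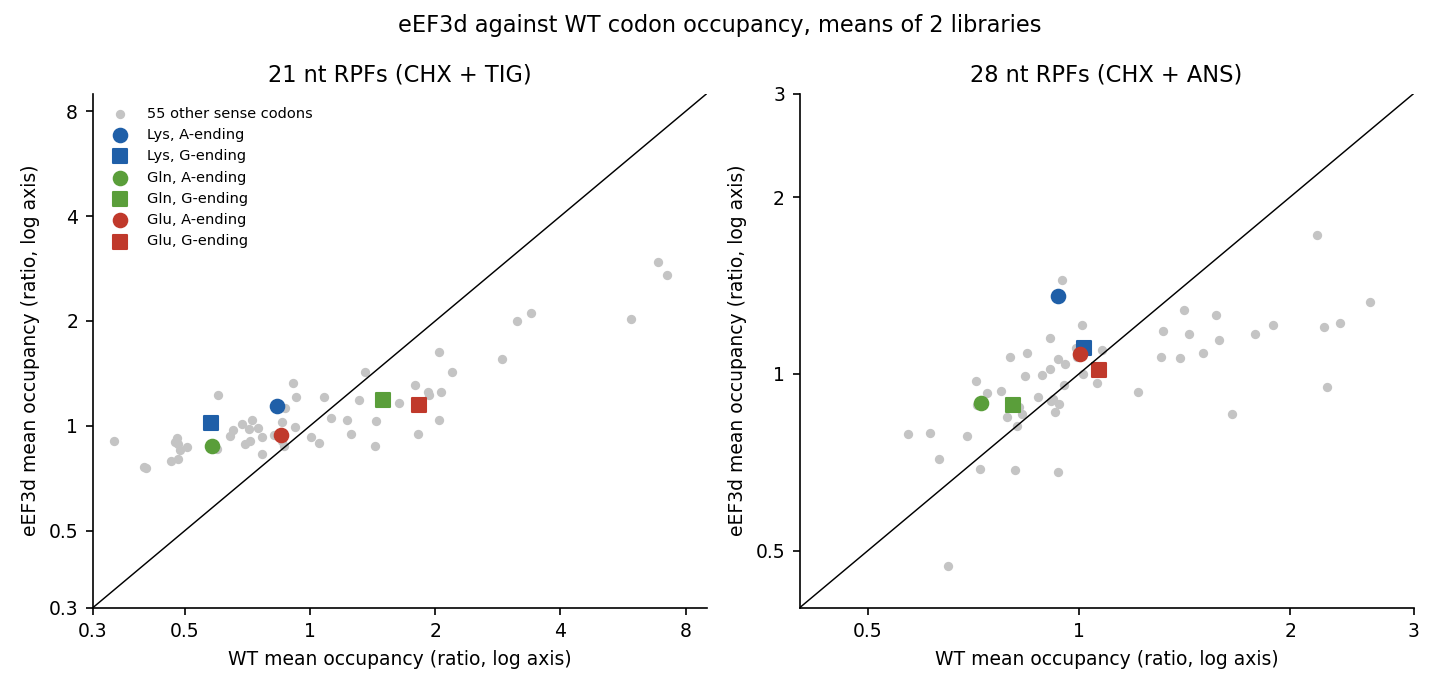
Mean occupancy in eEF3d against WT cells (ratio, log axes, 2 libraries each) for the 6 codons, colored by residue, and 55 other sense codons in grey, with the line of no change. In 21 nt RPFs the 6 codons spread from 0.577 to 1.83 in WT and from 0.876 to 1.19 in eEF3d cells, and in 28 nt RPFs the A-ending lysine codon lies above the line at 0.933 and 1.36.

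Averaged over their 2 codons, the 3 residues stood in the order of glutamate, glutamine and lysine in 21 nt RPFs of WT cells. The geometric mean occupancy was 1.27 and 1.22 at glutamate in WT replicates 1 and 2, 0.944 and 0.917 at glutamine, and 0.673 and 0.704 at lysine. Among these 3, the acidic residue was thus above the neutral one and the neutral one above the basic one in each WT library. This order of the means was also that of the G-ending codons but not of the A-ending ones. There, AAA (0.718 and 0.950) was above CAA (0.577 and 0.581) and overlapped with GAA (0.837 and 0.866). The order did not hold for charged residues in general. Aspartate, also acidic, had WT means of 0.642 at GAC and 0.821 at GAT. Of the other basic residues, arginine ranged from 0.711 at AGA to 7.22 at CGG, and histidine had 0.751 at CAC and 0.765 at CAT. In eEF3d replicates 1 and 2 the geometric means were 1.06 and 1.02 at glutamate, 1.03 and 1.01 at glutamine, and 1.15 and 1.01 at lysine, so the 3 residues came together. On the log2 scale, lysine minus glutamate was -0.92 and -0.79 in the WT libraries and 0.12 and -0.01 in the eEF3d libraries. By limma over 20 amino acids, lysine rose by 0.64 (standard error 0.11, limma adjusted p = 0.0275), glutamate had a change of -0.27 (limma adjusted p = 0.0835) and glutamine of 0.13 (limma adjusted p = 0.312). This was 1 of 3 residues, where 35.0% of the 20 amino acids were called. The lysine call was lost with the replicate block (limma adjusted p = 0.0893), without moderation (0.109), and without WT replicate 1 or either eEF3d replicate.

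In 28 nt RPFs the order of the residues was another one. In WT replicates 1 and 2, glutamine was lowest, at 0.761 and 0.770, while lysine had 0.933 and 1.01 and glutamate 1.09 and 0.979. In eEF3d replicates, lysine was highest, at 1.21 and 1.23, followed by glutamate at 1.02 and 1.07 and glutamine at 0.882 and 0.896. Lysine and glutamate overlapped in WT and were apart in eEF3d cells, and glutamine was below both in all 4 libraries. Lysine rose by 0.33 (limma adjusted p = 0.00164) and glutamine by 0.22 (limma adjusted p = 0.00211), and glutamate had a change of 0.02 (95% interval -0.13 to 0.17, limma adjusted p = 0.816). So 2 of 3 residues were called, where 60.0% of the 20 amino acids were. Without moderation the lysine call was lost (limma adjusted p = 0.0652) and that of glutamine was not (0.0252). Among 20 amino acids, lysine ranked 11 and 9 in the WT libraries and 3 and 2 in the eEF3d libraries.

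The spread among the 6 codons in 21 nt RPFs was smaller in eEF3d than in WT cells, as was that among all 61 codons. WT replicates 1 and 2 had a highest codon at 3.35 and 3.30 times the lowest, and eEF3d replicates at 1.29 and 1.64 times. Over all 61 codons the same quotient was 23.97 and 23.8 (WT) against 2.82 and 5.46 (eEF3d). In 28 nt RPFs this quotient was 1.55 and 1.499 (WT) against 1.499 and 1.62 (eEF3d), so the strains overlapped. Over the 6 codons in 28 nt RPFs, log2 occupancy had an SD of 0.24 and 0.21 (WT) against 0.22 and 0.25 (eEF3d), whereas over all 61 codons the SD was 0.53 and 0.51 against 0.32 and 0.30. CAA was the lowest of the 6 in 6 of the 8 libraries. The exceptions were WT replicate 2 in 21 nt RPFs, where AAG was lowest, and eEF3d replicate 2 in 28 nt RPFs, where CAG was.

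For each codon, the most similar of the 55 other codons was found by the root mean square difference of log2 occupancy over the 8 libraries. It was CAC (His) for AAA at 0.22, AGA (Arg) for AAG at 0.18 and AAT (Asn) for CAA at 0.18. It was AGT (Ser) for CAG at 0.14, AGC (Ser) for GAA at 0.14 and CGC (Arg) for GAG at 0.17. When the search took in all other sense codons, with the rest of the 6 included, the same codon was the closest in each case. None of the 6 was thus closest to its own synonymous codon. How often this holds for the other codons was not determined, so it is not a trait shown to be particular to these pairs.

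Gene numbers of the matching tRNAs were set beside the pair ratios. In 21 nt RPFs of WT cells, the codon of each pair with fewer tRNA genes had the higher occupancy for all 3 residues: AAA with 7 genes against 14, CAG with 1 against 9 and GAG with 2 against 14. AGA and AGG (Arg), chosen here after their values were seen because a modified uridine tRNA also reads AGA, had 11 and 1 genes and a log2 ratio of -1.43. The codon with fewer genes was also the higher one in the pairs of Thr, Gly and Ser. For TTA and TTG (Leu), with 7 and 10 genes, it was not: the log2 ratio was -0.57, with TTG higher. GTA and GTG (Val) had 2 genes each, yet a log2 ratio of -1.43. Over the 9 pairs with a tRNA gene for each codon, the log2 ratio of occupancy and that of gene copies had a Pearson's r of -0.64 and a Spearman's rho of -0.60 for WT, and for eEF3d cells the values were -0.66 and -0.52, with all pairs taken from the same libraries. Without the lysine pair, which lies at one end, r over 8 pairs was -0.41 for WT and -0.47 for eEF3d cells. In 28 nt RPFs, over the same 9 pairs, r was -0.45 and rho -0.38 for WT, and r was -0.72 and rho -0.80 for eEF3d cells. Without the lysine pair these were -0.44 and -0.36 for WT, and -0.58 and -0.71 for eEF3d cells.

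**Figure D5:**
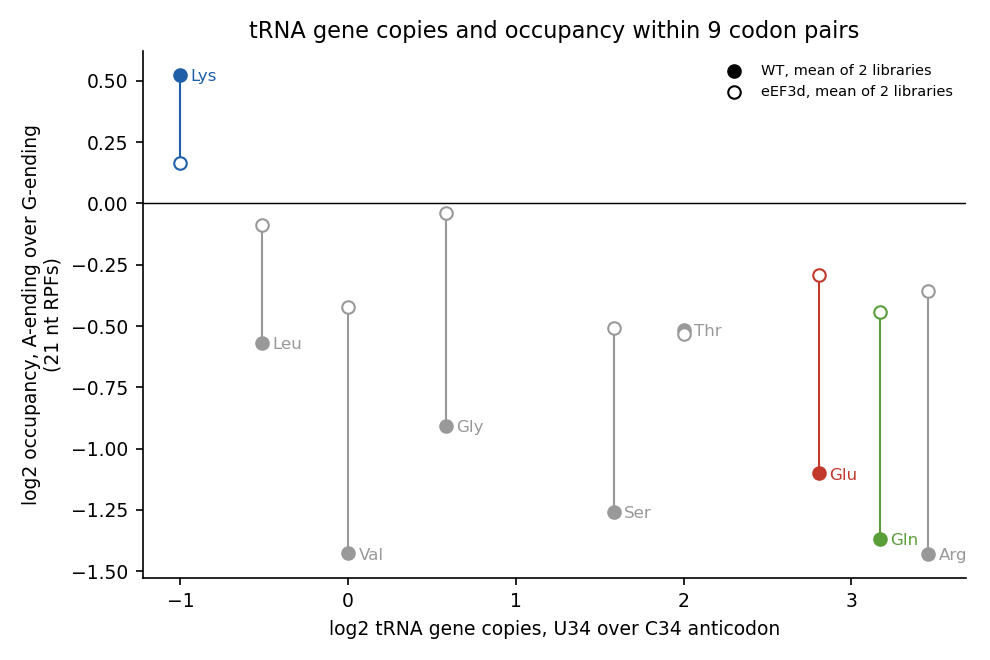
Log2 ratio of occupancy in 21 nt RPFs (A-ending over G-ending codon, mean of 2 libraries, WT filled and eEF3d open) against the log2 ratio of nuclear tRNA gene copies (wobble uridine over wobble C), for the 9 pairs with a tRNA gene for each codon. Lysine has the lowest copy ratio and is the only pair above 0, and glutamine and glutamate lie at high copy ratios with -1.37 and -1.10 in WT.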

How the data were processed

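Codon occupancy was taken from 1 deposited table of 61 sense codons in 8 libraries. The authors trimmed reads, set aside those from rRNA and other ncRNA, aligned the rest to R64 (sacCer3) with STAR, kept unique alignments, set the A site from start codons and deposited, for each codon, the ratio of footprint density in its window to that of the coding sequence. The submitters' processing notes also name CASAVA 1.8. The ratio is relative within a library: a rise at some codons lowers others, and depth is unknown. Groups and replicate numbers came from the sample titles.

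Log2 ratios were fitted with limma 3.58.1 (R 4.3.3) over 61 codons, 13 A-over-G pairs or 20 amino acid means (geometric), each footprint class on its own, and over 8 libraries for the difference between classes. P-values were adjusted by Benjamini-Hochberg over each table (threshold 0.05). They set each estimate against the spread between 2 libraries per group, moderated over all features of the fit. limma assumed 1 common SD for all codons in 21 nt RPFs and for all pairs, so there a feature's own replicates did not set its standard error. Values were all above 0, so the log was taken directly. The fits were tested on simulated data with independent noise and 1 common SD in each footprint class. Such data cannot show how the fits behave where codons of a library vary together. All 6 codons and 3 pairs are named, with the extreme codons and pairs in WT and the most similar codon to each. Codons and tests were chosen with earlier results of these data known. Alternatives were a replicate block, a pseudocount of 0.1, a mean-variance trend, no moderation, 2 scalings, arithmetic means over codons, weights by class, and leaving out each replicate. A crossed block was added after seeing the data. Anticodons were read from the sequence of 273 nuclear tRNA genes, and 2 could not be read. Python 3.11, numpy 2.4.6 and pandas 2.3.3 were used.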

Additional observations from a re-analysis of the deposited data

Results flagged for a closer look

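At 3 of the 6 codons and in all 3 pair ratios, the effect of eEF3 depletion was not the same in 28 nt as in 21 nt RPFs by the interaction term of limma. The same was called for 50.8% of the 61 codons and 61.5% of the 13 pairs. The difference on the log2 scale (28 nt minus 21 nt) was -0.70 at AAG (limma adjusted p = 0.00753), 0.47 at CAG (0.0451) and 0.60 at GAG (0.015). For the ratio of the A-ending to the G-ending codon it was 0.78 for lysine (limma adjusted p = 0.0251), -0.76 for glutamine (0.0251) and -0.63 for glutamate (0.0497). All of these differences had the same sign under every alternative that was run, and their largest limma adjusted p over these alternatives was 0.0649 at AAG, 0.164 at CAG, 0.108 at GAG, 0.151 for the lysine ratio, 0.131 for glutamine and 0.205 for glutamate. The difference cannot be told apart from the origin of the WT libraries with CHX + ANS.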

How the results depend on the processing

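Over 45 values and 477 alternatives, 362 kept their direction and their side of the threshold, 87 lost a call, 11 gained one and 17 changed sign, none of the last from a called value. Without moderation, 0 of the 6 codons were called in either class or in the difference between classes, and 0 of the 3 pair ratios for both changes, for WT and eEF3d cells in 28 nt RPFs and for the class difference, while 1 of 3 residues (glutamine, without lysine) was called in 28 nt RPFs and 0 in 21 nt RPFs. A mean-variance trend called 1 pair in 21 nt RPFs of eEF3d cells. Median centering shifted every 21 nt change by -0.15 (12 codons higher and 20 lower of 61, against 21 and 17) and every 28 nt change by -0.09 (11 and 23, against 14 and 16), and division by the mean shifted them by 0.29 (30 and 6) and 0.13 (26 and 14). Each of these scalings called 2 residues in 21 nt RPFs, and the second called 5 codons in 28 nt RPFs. Median centering turned GAA in 21 nt RPFs (-0.015), glutamine (-0.027 in 21 nt), glutamate (-0.069 in 28 nt) and the class difference of GAA (0.035). Division by the mean turned glutamate in 21 nt RPFs (0.018), GAG in 28 nt RPFs (0.064) and the class difference of AAA (-0.073), and arithmetic means turned glutamine in 21 nt RPFs (-0.0076).

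The replicate numbers share no stated culture or day, and same-numbered deviations had a correlation of -0.17 in 21 nt and -0.03 in 28 nt RPFs over 61 codons. The replicate block called 0 residues in 21 nt RPFs, 1 codon in 28 nt RPFs and 0 pairs in 28 nt RPFs of WT cells. A crossed pairing, chosen after seeing the data, was run for 21 nt RPFs only and called 1 pair change and 2 WT pairs there, without the lysine pair. With 1 library left out, the lone library was assumed to vary like the others. Calls among the 6 codons then ranged from 0 to 4 in 21 nt RPFs, from 2 to 2 in 28 nt RPFs and from 0 to 4 for the class difference. Calls among the 3 pairs ranged from 2 to 3 (WT), 0 to 1 (eEF3d) and 0 to 3 (change) in 21 nt RPFs, from 0 to 1 for each in 28 nt RPFs and from 0 to 2 for the class difference. Residue calls ranged from 0 to 1 in 21 nt RPFs and stayed at 2 in 28 nt RPFs. Values that changed sign ranged from -0.17 to 0.028 for GAG, from -0.044 to 0.074 for the glutamine ratio in eEF3d cells and from -0.060 to 0.097 for glutamate, all in 28 nt RPFs, and for the class difference from -0.12 to 0.28 at AAA and from -0.15 to 0.093 at GAA. The cause was not tested for any of these. Depth is unknown, so precision rests on 2 libraries per group and, by limma, on a spread pooled over codons, pairs or amino acids. That pooling takes the features as independent, although values within a library are relative to one another.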
